A study of Mus musculus with 6 samples.

Results

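The genes beside Tbx21 on mouse chromosome 11 are described here in sorted bone marrow MEP, the megakaryocyte-erythroid progenitors from which megakaryocytes and red cells arise. Tbx21 encodes T-bet, the T-box transcription factor that directs interferon-gamma programmes in T helper 1 and natural killer cells. The genes were chosen by position and not by signal: Cdk5rap3, Sp2, Sp6, Scrn2, Lrrc46 and Osbpl7 precede Tbx21 in RefSeq order, and Tbkbp1, Kpnb1 and Npepps follow it. Of these 9 genes, 8 had a probe set with 1 gene symbol in the array annotation, out of 22180 genes so named, and Sp2 was not analysed here. Where a gene had several such probe sets, the one of highest mean over all arrays stands for it.

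Expression was measured in T-bet knockout MEP from C57BL/6 mice (3 arrays) and in wild-type MEP from C57BL/6 mice (3 arrays). Per the labels, each array is a different animal, and antibody-stained cells were isolated from uncultured marrow on a flow cytometer. The sources used here do not state the allele, the stem cells it was made in, the number of backcrosses, or the age and sex of the animals. Values are log2 signals of Affymetrix probe sets, and ± gives the SD between arrays (n = 3 per group).

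In a knockout made by gene targeting, the DNA next to the targeted gene is inherited with it, so the neighbours are the genes closest to the altered locus. Their functions are diverse, apart from Sp2 and Sp6, which belong to the same family. Tbkbp1 binds the kinase TBK1 in antiviral signalling. Sp2 and Sp6 are zinc finger transcription factors of the Sp family, and Osbpl7 belongs to the oxysterol-binding proteins, which bind and move lipids between membranes. Kpnb1 is the importin beta chain that carries cargo through the nuclear pore, Npepps is the puromycin-sensitive aminopeptidase of the cytosol, and Cdk5rap3 is a partner of the ligase that attaches the ubiquitin-like protein UFM1. UFM1 conjugation is known from mouse knockouts to be needed for red cell formation. Lrrc46 is a leucine-rich repeat protein known from mouse sperm, and Scrn2 is a secernin.

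The RefSeq table (GRCm38.p6) held promoter windows, from 250 bases before to 50 after the start, for Tbkbp1, Osbpl7, Sp2, Cdk5rap3, Kpnb1 and Npepps. The 250 bases before the start are shown for 3 genes: Osbpl7 and Tbkbp1, the nearest protein-coding genes on either side of Tbx21, and Kpnb1, whose array groups did not overlap. Capitals mark the GC box bound by Sp factors (GGGCGG) and the CCAAT box (CCAAT), each on either strand; the motifs share no base in the sequences shown.
Osbpl7, chr11:97050570-97050819, plus strand: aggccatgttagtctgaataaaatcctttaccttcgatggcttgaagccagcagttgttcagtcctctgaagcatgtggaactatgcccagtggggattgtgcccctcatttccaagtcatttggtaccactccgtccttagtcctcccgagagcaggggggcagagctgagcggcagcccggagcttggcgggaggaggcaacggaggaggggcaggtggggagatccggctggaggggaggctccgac
Tbkbp1, chr11:97151507-97151756, minus strand: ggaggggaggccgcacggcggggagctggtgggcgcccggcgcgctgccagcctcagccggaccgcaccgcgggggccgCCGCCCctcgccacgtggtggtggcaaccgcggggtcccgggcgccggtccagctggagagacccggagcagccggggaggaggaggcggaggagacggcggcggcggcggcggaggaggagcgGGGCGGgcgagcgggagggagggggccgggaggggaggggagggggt
Kpnb1, chr11:97187893-97188142, minus strand: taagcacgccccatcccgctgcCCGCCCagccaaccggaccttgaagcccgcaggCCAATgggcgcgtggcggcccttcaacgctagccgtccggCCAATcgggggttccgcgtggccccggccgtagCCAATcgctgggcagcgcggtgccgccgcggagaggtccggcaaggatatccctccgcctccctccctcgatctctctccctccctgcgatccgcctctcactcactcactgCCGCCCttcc

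Osbpl7 had no GC box and no CCAAT box in its whole window, and Tbkbp1 had 2 GC boxes in a window of 83.0% G and C. Kpnb1 had 3 GC boxes and 3 CCAAT boxes in its whole window, of which 2 and 3 lie in the bases shown. Cdk5rap3 had 3 of each, Npepps had 11 GC boxes, overlapping ones included, and Sp2 had none of either. Among the windows of 27025 genes, 35.9% held a GC box and 37.9% a CCAAT box. The core of the T-box motif (AGGTGT, either strand) was in none of the 6 windows and in 13.9% of all windows. The G and C content of the 6 windows lay between 53.3% and 83.0%, against a median of 52.7% over all genes. A match is a description of letters and no evidence of binding.

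Array medians lay between 6.44 and 6.53. Across probe sets, r was 0.980 to 0.987 between arrays of 1 group and 0.982 to 0.987 between groups. Of 9 MEP markers, 8 were measured and 0 fell in the dimmest 30% of probe sets, called dim below; their summed log2 signal was 82.99 to 83.51 in knockout and 83.13 to 83.30 in wild-type arrays. The 1 MEP marker past an unadjusted limma p of 0.05, as 3.13% of all genes were, was Itga2b (CD41, the megakaryocyte and platelet integrin). It averaged 7.25 ± 0.097 in knockout and 7.59 ± 0.23 in wild-type arrays (limma difference -0.34, SE 0.14, unadjusted p = 0.0449, adjusted p = 1.0). The groups did not overlap, with the knockout lower, as in 5.18% of all genes. The part of Itga2b in the results was not tested. Summed myeloid markers (6 of 6 measured, 2 dim) spanned 34.58 to 37.88 in knockout and 34.70 to 36.62 in wild-type arrays. Summed T and NK markers (7 of 7, 3 dim) spanned 43.17 to 44.37 in knockout and 43.22 to 43.75 in wild-type arrays, and summed B cell markers (4 of 5, 2 dim) 24.69 to 25.93 in knockout and 24.36 to 25.27 in wild-type arrays. The sums hide opposite differences: Cd4 was at 0.27 (SE 0.12), with the knockout higher without overlap, as in 3.52% of all genes, and Nkg7 at -0.28 (SE 0.14). Cd79a differed by 0.56 (SE 0.27), while the other measured B cell markers lay between -0.0091 and 0.0072. In these lists 0 markers passed an unadjusted limma p of 0.05. Sex-linked signal differed between arrays: by replicate number, Xist was at 11.83, 11.79 and 5.42 among knockout arrays, against 11.81, 12.21 and 5.56 among wild-type arrays. Y-linked Eif2s3y was at 8.39, 8.86 and 9.73 among knockout arrays, against 8.78, 4.95 and 9.70 among wild-type arrays, and Uty at 8.36, 8.47 and 9.74 among knockout arrays, against 8.68, 5.22 and 9.51 among wild-type arrays. Both kinds of signal were thus present together on 3 arrays (replicate 1 of either group and knockout replicate 2), although the labels describe single mice. Values from the other 3 arrays, knockout replicate 3 and wild-type replicates 2 and 3, are given below for every neighbour.

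The targeted gene gave no check of the labels. Tbx21 read 6.41, 6.60 and 6.46 in knockout arrays and 6.54, 6.62 and 6.60 in wild-type arrays, and the groups overlapped. The difference was -0.093 (SE 0.094, limma adjusted p = 1.0), or -0.15 to -0.050 with 1 array left out, and the sources used here do not state which exons its probe set covers.

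No difference between knockout and wild-type MEP was detected for any of the 8 neighbours. With limma, 0 passed an adjusted p of 0.05 (all at 1.0) and 0 passed an unadjusted p of 0.05, where 0% of 41345 probe sets and 3.13% of 22180 genes did. The fitted knockout over wild-type folds lay between 0.87 (Scrn2) and 1.05 (Lrrc46). All 8 intervals of 95% included no difference, and all 8 stayed within 1.5-fold, as did 85.9% of all genes. For 6 of the 8, all but Sp6 and Scrn2, the interval also stayed within 1.25-fold, against 34.8% of all genes. The median difference was -0.070, with 3 above and 5 below 0, beside a median of -0.0045 over all genes. The interval of the targeted gene, Tbx21, also stayed within 1.25-fold, at a mean signal of 6.54. The neighbours of lowest mean signal were Sp6 (6.25), Tbkbp1 (6.75) and Scrn2 (6.89). Whether these signals lie above background was not tested, so for these genes a narrow interval is no evidence of unchanged expression. In sorted cells measured in bulk, fewer cells of a type and less RNA per cell cannot be told apart.

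**Figure D1:**
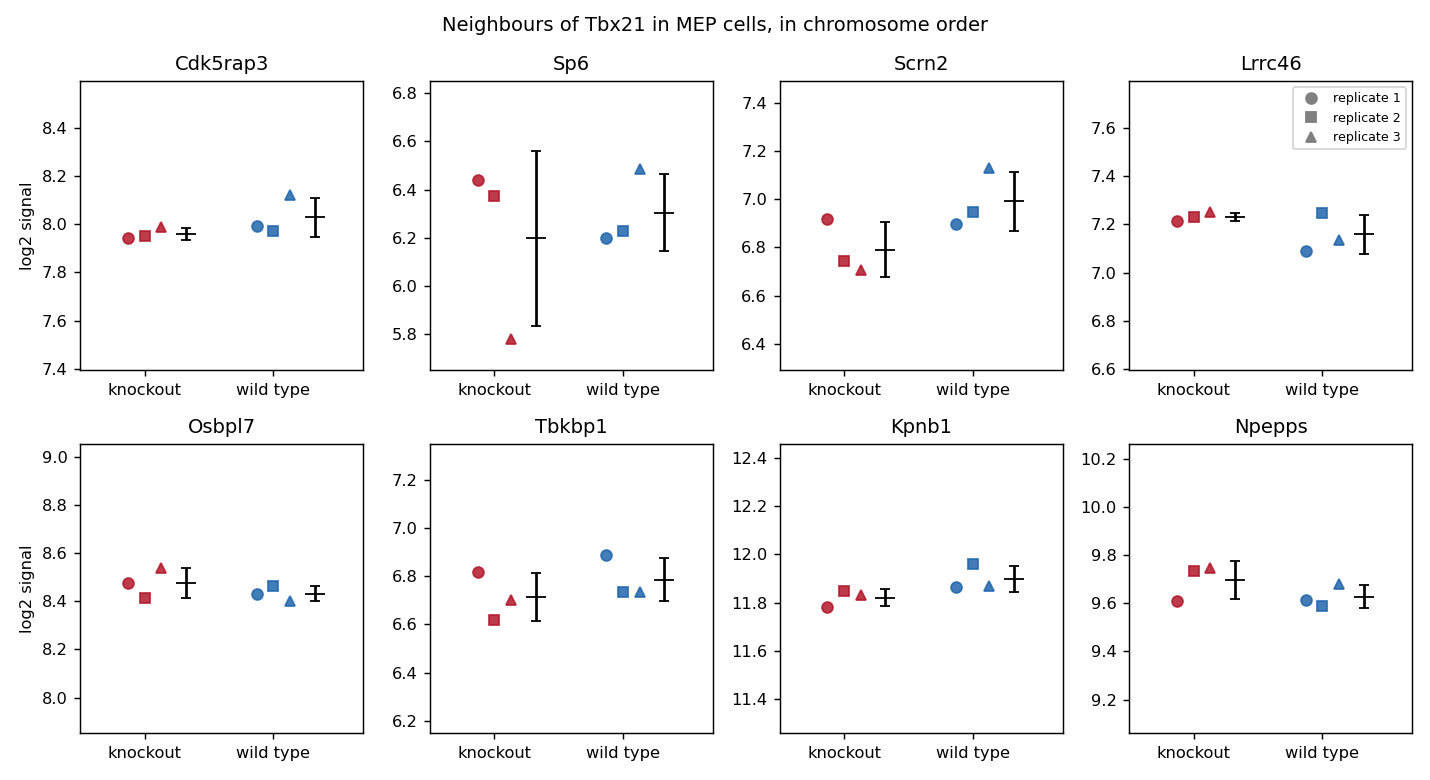
Log2 signal (y axis) of the 8 measured neighbours in knockout (red, left) and wild-type (blue, right) arrays; symbols give the replicate number, the bar is the group mean and the whisker the SD over 3 arrays, and every panel spans the same log2 range. The groups overlap in every panel but that of Kpnb1, and Sp6 in knockout replicate 3 stands lowest in its panel, at 5.78.

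The signalling adaptor gene Tbkbp1, the first gene after Tbx21, read 6.82, 6.62 and 6.70 in knockout arrays and 6.89, 6.74 and 6.73 in wild-type arrays. The groups overlapped, since knockout replicate 1 lay above wild-type replicates 2 and 3. The difference was -0.073 (SE 0.10), a fold of 0.95 with a 95% interval of 0.81 to 1.12. Its kinase Tbk1 differed by -0.0012. Of 13 genes listed around TBK1 and its relative IKKe, 11 were measured, 0 passed the adjusted or the unadjusted threshold, and the median difference was -0.0012. The 2 other genes of smallest p were Irf7, an interferon regulatory factor, at 0.20 (SE 0.19), and Azi2, an adaptor of the same kinases, at 0.083 (SE 0.082). Azi2 was the 1 listed gene of the 11 whose groups did not overlap, with the knockout higher, where 8.7% of all genes had groups apart.

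Osbpl7, the last gene before Tbx21, read 8.47, 8.41 and 8.54 in knockout arrays and 8.43, 8.46 and 8.40 in wild-type arrays. The wild-type values lay inside or just below the knockout range, and the groups overlapped. The difference was 0.044 (SE 0.086), a fold of 1.03 with a 95% interval of 0.89 to 1.19. In the oxysterol-binding protein family 12 of 12 genes were measured, with a median difference of 0.056, 8 above 0 and 0 past either threshold. Osbp, the founding member, differed by 0.17 (SE 0.10) and Osbpl1a by 0.13 (SE 0.086). The groups of 2 of the 12 did not overlap, those of Osbpl1a and of Osbpl5 (0.072, SE 0.084), both with the knockout higher, as in 3.52% of all genes.

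Sp6, known in mice from tooth, hair follicle and limb development, was the least precisely measured neighbour. It read 6.44, 6.38 and 5.78 in knockout arrays and 6.20, 6.23 and 6.49 in wild-type arrays. Knockout replicate 3 was the lowest of the 6, and the other knockout arrays lay inside the wild-type range. The difference was -0.11 (SE 0.19), a fold of 0.93 with a 95% interval of 0.67 to 1.28. Without knockout replicate 3 it was 0.10, and from the 3 arrays with a single sex-linked signal, of which that array is the only knockout, it was -0.58 (limma unadjusted p = 0.0404, adjusted p = 0.568). Knockout replicate 3 also had the highest summed myeloid marker signal, 37.88. Wild-type replicate 3 had the next highest, 36.62, and the highest Sp6 value of the 6 arrays, 6.49. The part of the myeloid signal in the Sp6 values was not tested. The SD of Sp6 within groups was 0.28, larger than that of 90.5% of genes. Among the 9 Sp factors 8 were measured and 0 passed either threshold, with a median of -0.020. Sp7, an osteoblast factor, differed by -0.27 (SE 0.18) at a dim signal, and Sp3 by 0.082 (SE 0.10).

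Kpnb1 was the 1 neighbour of 8 whose groups did not overlap, where 8.7% of all genes had groups apart and 5.18% had the knockout lower. It read 11.78, 11.85 and 11.83 in knockout arrays and 11.86, 11.96 and 11.87 in wild-type arrays. The highest knockout value lay just below the lowest wild-type value. The difference was -0.077 (SE 0.085), a fold of 0.95 with a 95% interval of 0.82 to 1.09 and a limma adjusted p of 1.0. The exact permutation test, 2-sided, gave 0.1, the smallest p that 3 arrays against 3 allow. The importin and Ran list held 23 genes, of which 22 were measured, 17 below 0 and 5 above, with a median of -0.025 and 0 past either threshold. Ipo13 differed by -0.13 (SE 0.12) and Rcc1, the exchange factor of Ran, by -0.096 (SE 0.092).

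The first 2 probe sets of Kpnb1 read about the same difference, and the third read a higher one. The second read 11.17, 11.19 and 11.18 in knockout arrays and 11.20, 11.32 and 11.21 in wild-type arrays, again with the groups apart and a difference of -0.064 (SE 0.086). The third read 8.75, 8.70 and 8.69 in knockout arrays and 8.58, 8.85 and 7.94 in wild-type arrays. Its groups overlapped, and the difference was 0.26 (SE 0.22). Wild-type replicate 3 was far below the other 5 arrays on that probe set and second highest on the others. Without that array the third probe set differed by -0.00047 (SE 0.13). The mean of the 3 probe sets gave Kpnb1 a difference of 0.039 (SE 0.11), and -0.057 without wild-type replicate 3, a value chosen after seeing the data and not tested. A further Kpnb1 probe set shares its annotation with the gene Gm8738 and was left out by the rule of 1 symbol, and whether the other probe sets also read that copy is not known here.

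**Figure D2:**
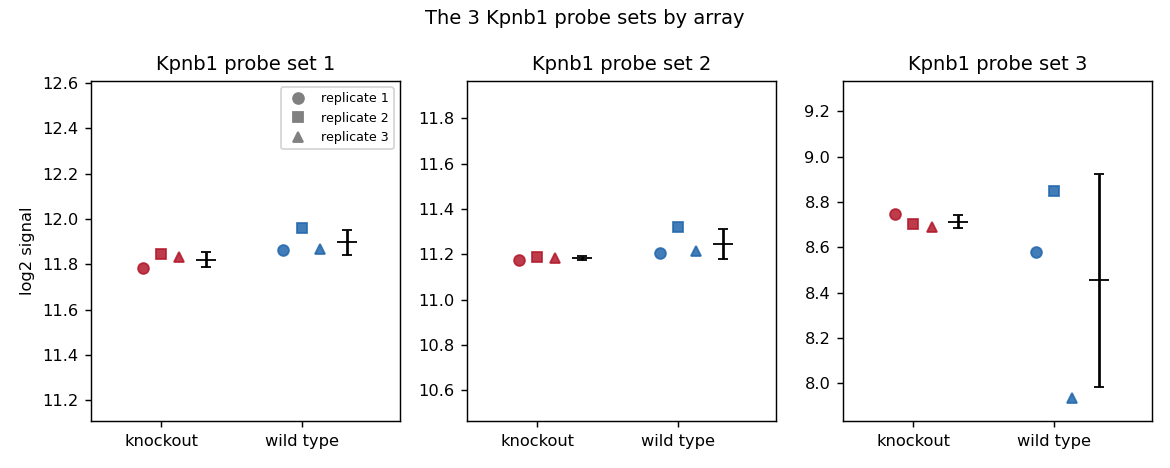
Log2 signal (y axis) of the 3 Kpnb1 probe sets, in order of falling mean, in knockout (red, left) and wild-type (blue, right) arrays; symbols give the replicate number, the bar the mean and the whisker the SD over 3 arrays. Knockout arrays lie below wild-type arrays on probe sets 1 and 2, while probe set 3 has wild-type values between 7.94 and 8.85.

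Cdk5rap3 read 7.94, 7.95 and 7.99 in knockout arrays and 7.99, 7.97 and 8.12 in wild-type arrays. Its groups overlapped by 1 knockout array, replicate 3. The difference was -0.068 (SE 0.089), a fold of 0.95 with a 95% interval of 0.82 to 1.11. Of 9 genes listed for UFM1 conjugation 8 were measured, with a median of 0.015, 4 above and 4 below 0, and 0 past either threshold. The ligase Ufl1 differed by -0.032 and its partner Ddrgk1 by 0.11. The 2 other genes of smallest p were Ufsp1, a UFM1 protease, at 0.22 (SE 0.16), and Odr4 at 0.11 (SE 0.096).

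Npepps, the last of the genes after Tbx21, read 9.61, 9.73 and 9.75 in knockout arrays and 9.62, 9.59 and 9.68 in wild-type arrays. Knockout replicates 2 and 3 were the highest of the 6 arrays, and replicate 1 lay inside the wild-type range. The difference was 0.069 (SE 0.090), a fold of 1.05 with a 95% interval of 0.90 to 1.22. Of 10 M1 aminopeptidases 9 were measured, with a median of -0.019, and 1 passed an unadjusted p of 0.05, as 3.13% of all genes did. That was Anpep (CD13), a surface enzyme of myeloid cells, which averaged 6.30 ± 0.042 in knockout arrays against 6.53 ± 0.11 in wild-type arrays (limma difference -0.24, SE 0.096, unadjusted p = 0.0448, adjusted p = 1.0). Trhde, which degrades thyrotropin-releasing hormone, differed by -0.17 (SE 0.12) at a dim signal.

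Scrn2 had the largest difference among the neighbours. It read 6.92, 6.74 and 6.71 in knockout arrays and 6.90, 6.95 and 7.13 in wild-type arrays. Knockout replicates 2 and 3 were the lowest of the 6 arrays, and knockout replicate 1 lay just above wild-type replicate 1. The difference was -0.20 (SE 0.11, limma unadjusted p = 0.110, adjusted p = 1.0), a fold of 0.87 with a 95% interval of 0.73 to 1.04. With array weights it was -0.24 (unadjusted p = 0.0491, adjusted p = 0.711), and from the 3 arrays with a single sex-linked signal it was -0.33 (adjusted p = 0.649). The other secernins, Scrn1 and Scrn3, differed by 0.023 (SE 0.17) and -0.011 (SE 0.11).

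Lrrc46 read 7.21, 7.23 and 7.25 in knockout arrays and 7.09, 7.25 and 7.14 in wild-type arrays. The knockout arrays lay close together, near the highest wild-type value, which only knockout replicate 3 passed, and the groups overlapped. The difference was 0.073 (SE 0.088), a fold of 1.05 with a 95% interval of 0.91 to 1.22.

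In order of difference the neighbours ran from Scrn2 through Sp6, Kpnb1, Tbkbp1, Cdk5rap3, Osbpl7 and Npepps to Lrrc46. The order is not taken as resolved, and no contrast between genes was fitted. The intervals of all 28 pairs overlapped, which is no test of a difference between genes read on the same arrays. The largest step between consecutive genes was 0.11, with SEs between 0.085 and 0.19. The exact permutation p-values lay between 0.1 and 0.8. Within groups, 7 of the 8 had an SD below the median of all genes, 0.14. The SD was 0.045 for Kpnb1 and 0.049 for Osbpl7, and 3.73% and 4.96% of genes had a smaller one.

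The median differences on the 2 sides of Tbx21 were close, and no contrast by position was fitted. The 5 measured neighbours before Tbx21 had a median difference of -0.068, with 2 above and 3 below 0, and the 3 after it a median of -0.073, with 1 above and 2 below. Among the neighbours lie 3 further measured genes. Prr15l read 7.42, 7.32 and 7.17 in knockout arrays and 7.53, 7.50 and 7.53 in wild-type arrays. Its groups did not overlap, with the knockout lower, as in 5.18% of all genes. The difference of Prr15l was -0.22 (SE 0.099, limma unadjusted p = 0.0657, adjusted p = 1.0). Its unadjusted p was under 0.05 in 5 of the 16 alternatives, with 0.0324 the smallest, and its adjusted p was at least 0.602 in all of them. The non-coding RNA D030028A08Rik differed by -0.0010 and the mitochondrial ribosomal protein gene Mrpl10 by 0.024.

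**Figure D3:**
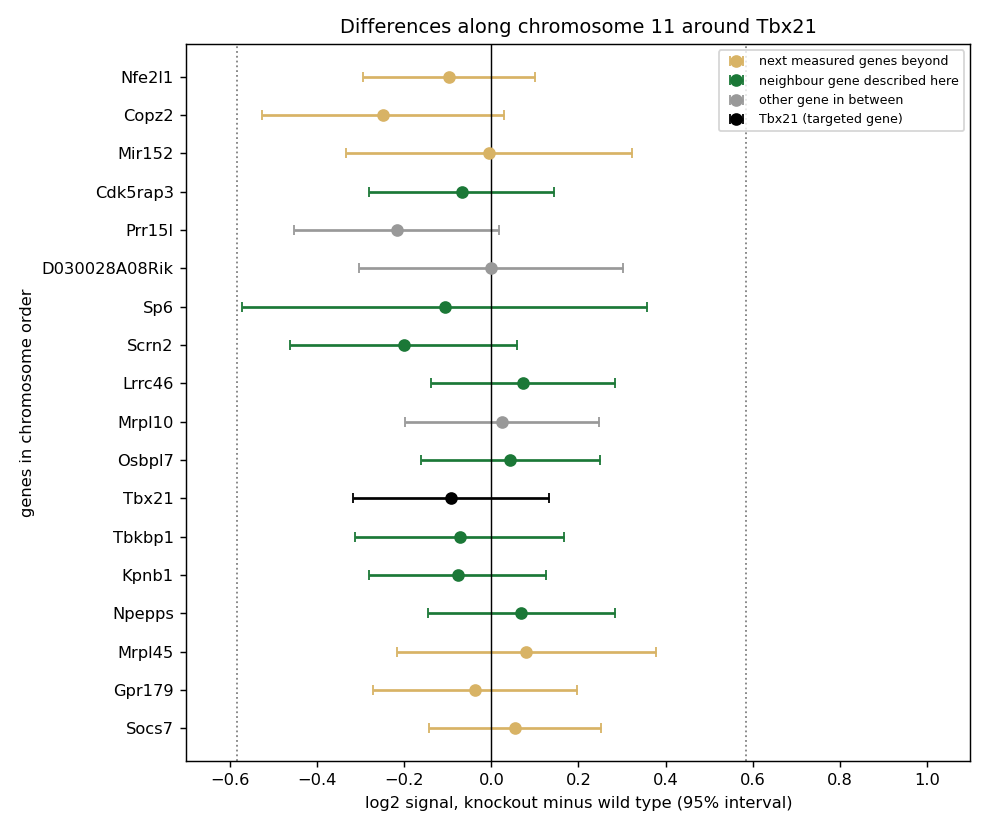
Difference in log2 signal, knockout minus wild type (x axis), with limma's 95% interval, for Tbx21, its 8 measured neighbours, the 3 other measured genes in between and 3 measured genes beyond on each side, in chromosome order from top to bottom; dotted lines mark 1.5-fold. Every interval shown crosses 0, and each stays within the dotted lines.

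Beyond the block, the next measured genes before it were Nfe2l1 (-0.098, SE 0.082), Copz2 (-0.25, SE 0.12) and Mir152 (-0.0053, SE 0.14), and those after it Mrpl45 (0.080, SE 0.12), Gpr179 (-0.037, SE 0.098) and Socs7 (0.054, SE 0.083). The groups of Nfe2l1, Copz2 and Socs7 did not overlap. With 1 array left out, Mrpl45 lay between 0.010 (without knockout replicate 3) and 0.18 (without knockout replicate 1), and Copz2 between -0.31 and -0.16 (without wild-type replicate 3). Copz2 had an unadjusted p under 0.05 in 2 of the 16 alternatives. Over the next 25 measured genes on each side, 50 in all, the median was -0.026. Among them 7 had groups apart, 3 with the knockout higher and 4 with it lower, where 3.52% and 5.18% of all genes did. Of these 50, 1 passed an unadjusted p of 0.05, against 3.13% of all genes: Hoxb5, which averaged 6.17 ± 0.11 in knockout arrays against 6.42 ± 0.054 in wild-type arrays (limma difference -0.25, SE 0.098, adjusted p = 1.0).

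Across the 7 families and pathways of the neighbours, list medians lay between -0.025 and 0.056, and no gene passed limma's adjusted threshold. In the Sp, secernin and importin lists the neighbour lay below its list's median, as it did in the TBK1 and UFM1 lists, while Npepps lay above its own and Osbpl7 just below.

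**Figure D4:**
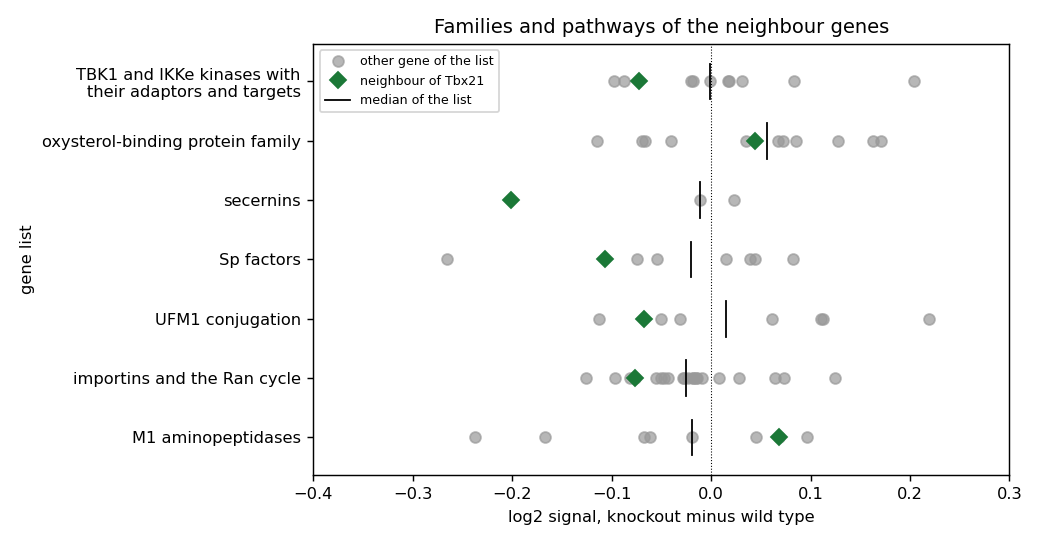
Difference in log2 signal, knockout minus wild type (x axis), for the measured genes of 7 lists (rows); green diamonds are the neighbours of Tbx21, grey points the other genes and black bars the list medians. All points lie between -0.27 and 0.22, and Scrn2 is the lowest of the 3 secernins.

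The direction of 6 of the 8 neighbours was the same in all 16 alternatives. The exceptions were Sp6 without knockout replicate 3 and Kpnb1 as the mean of its probe sets. Several alternatives could not turn a sign and add nothing to this count. Limma-trend, no dim probe sets, named probe sets only and the replicate block leave the difference itself unchanged. The gene mean does so for neighbours with a single probe set, and centring moved all differences by the same very small amount. The range of Scrn2 was -0.33 to -0.13 and that of Lrrc46 0.039 to 0.12. Cdk5rap3 ranged from -0.096 to -0.021, Tbkbp1 from -0.13 to -0.021, Osbpl7 from 0.012 to 0.11 and Npepps from 0.043 to 0.11. From the 3 arrays with a single sex-linked signal, Cdk5rap3 differed by -0.057, Tbkbp1 by -0.031, Kpnb1 by -0.083, Lrrc46 by 0.058, Osbpl7 by 0.11 and Npepps by 0.11. That fit has 1 knockout array, which was assumed to vary like the wild-type arrays. For no neighbour did an adjusted p pass 0.05 in any alternative; the smallest was 0.568.

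**Figure D5:**
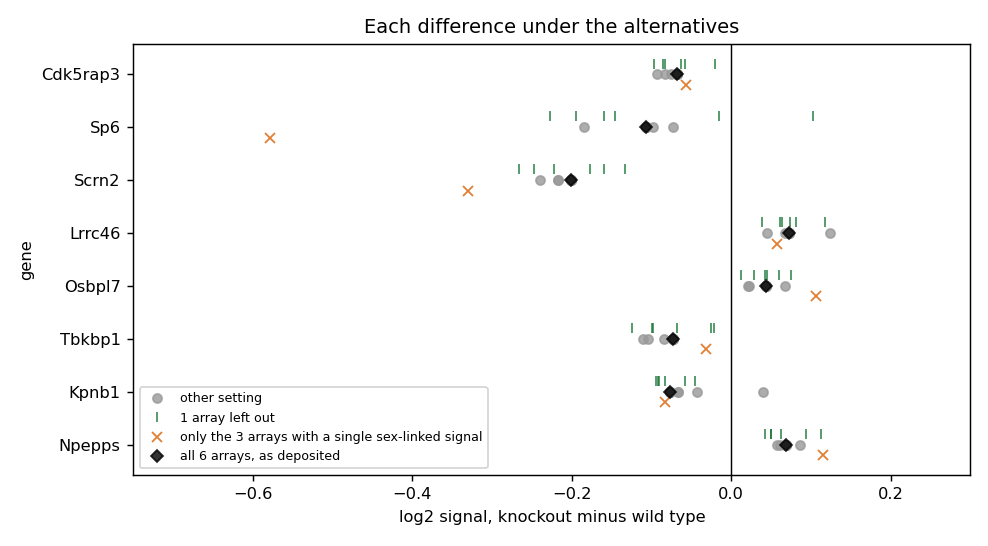
Difference in log2 signal, knockout minus wild type (x axis), of each measured neighbour (rows) under the alternatives: black diamonds all 6 arrays as deposited, green ticks with 1 array left out, orange crosses from the 3 arrays with a single sex-linked signal, grey circles other settings. Sp6 spreads from -0.58 to 0.10, while the other 7 stay between -0.33 and 0.12.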

How the data were processed

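RNA of sorted MEP was measured on 6 arrays, 3 per genotype. The deposited log2 signals of 41345 probe sets came, per the submitters' processing notes, from Affymetrix Expression Console 1.4.1.46. The sources used here do not state the background correction, normalization or summarisation. The log2 scale was inferred: the highest value, 14.2, exceeds 11.1, the natural log of the largest 16-bit intensity. Detection calls were not used, so signal above background is not known.

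The array annotation gave 1 symbol to 23521 probe sets, several to 1814 and none to 16010. Chromosome order came from a RefSeq table of GRCm38.p6, used for neighbourhood only, because the array file names no build. Groups and replicate numbers came from the titles. All 41345 probe sets were fitted with limma 3.58.1 (R 4.3.3, lmFit and eBayes, group as the only term), with Benjamini-Hochberg adjustment over all. SE and intervals are limma's. The fit was also run on simulated data with independent noise, without pairing or sex-linked differences, and its outcome is not reported here. The number of arrays limits the precision, and the SEs and p-values speak only of the spread between these arrays. For each probe set, eBayes moves that spread towards a value shared by all probe sets. For genes of small SD, such as Kpnb1 (SD 0.045, SE 0.085), the SE thus depends much on the shared value. With limma-trend, where that value follows the mean signal, the SE of Kpnb1 was 0.051 (unadjusted p = 0.171).

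The genes, lists, motifs and rules were chosen with earlier results of these data known. Named are Tbx21, the neighbours, and the measured genes in between and 3 beyond on each side. From each list, the neighbour and the 2 other genes of smallest p are named. Also named are the 3 genes most like the neighbour of largest difference, and sex-linked genes. Tbk1, Ufl1, Ddrgk1, Hoxb5, Osbpl5, Itga2b, Cd4, Nkg7 and Cd79a were added after their values were seen. Alternatives were another normalization, centring, limma-trend, array weights, no dim probe sets, named probe sets only, gene means, the replicate block, 1 array left out, and sex-linked signal as a block or with mixed arrays left out.

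Same-numbered arrays were checked for pairing: deviations from the group means correlated at 0.285, 0.116 and 0.115 over genes, above the criterion of 0.1, and at 0.212, 0.0569 and 0.140 over all probe sets. The labels state no pairing. Replicates 1 and 3 each had the same sex-linked class in both groups, and the part of this in the correlations was not tested. Going by the genes alone, the numbers would count as pairs, which enter the blocked alternative only. All other SEs, intervals and p-values take no account of pairing.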

Additional observations from a re-analysis of the deposited data

How the results depend on the processing

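With the replicate block, 0 probe sets and 0 neighbours passed an adjusted p of 0.05 and 0 neighbours an unadjusted one, so the pairing changed no call. Probe sets past adjusted p 0.05 numbered 1 with array weights, 1 with arrays centred on their median, and between 0 and 2 with 1 array dropped (2 for knockout replicate 3), against 0 as reported. Neighbours past unadjusted p 0.05 numbered 1 with array weights (Scrn2) and 1 without the arrays that carry both sex-linked signals (Sp6), and 0 in the other 14 alternatives. In that last fit the lone knockout array was assumed to vary like the wild-type arrays. The share of all genes past an unadjusted p of 0.05, 3.13%, belongs to the limma fit as reported. It is not given for the alternatives, so counts there have no matching share beside them. The sign of Kpnb1 turned with the mean of its probe sets, to 0.039 (-0.057 without wild-type replicate 3, a combination chosen after seeing the data), and that of Sp6 when 1 array was left out (-0.23 to 0.10). Among genes named around the neighbours, leaving out 1 array turned the sign of Mir152 (-0.13 to 0.078), D030028A08Rik (-0.090 to 0.073), Mrpl10 (-0.017 to 0.064) and Gpr179 (-0.079 to 0.015). D030028A08Rik also turned with array weights (0.044) and with sex-linked class as a block (0.039). Mir152 turned with that block (0.011) and without the arrays that carry both signals (0.31). The cause was not tested. With the 250 bases before the start alone, 32.9% of promoters held a GC box, 12.0% the T-box core and 34.5% a CCAAT box.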

Other observations

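Among 16295 other genes outside the dim 30%, the 3 whose values, each minus the gene's mean, ran closest to those of Scrn2 over the 6 arrays were Tmem37, Tdrp and Zc2hc1a. Their mean absolute differences from Scrn2 were 0.024, 0.026 and 0.027 on the log2 scale, against a median of 0.15 over all genes searched. Tmem37 differed by -0.22 between knockout and wild-type arrays (SE 0.12), Tdrp by -0.17 (SE 0.12) and Zc2hc1a by -0.15 (SE 0.11). Because the genes were picked for closeness on these same arrays, differences near that of Scrn2 and the gap to the median follow from the choice. They lie on chromosomes 1, 8 and 3.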
